A study of Mus musculus with 4 samples.

Results

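The 10 genes described here encode receptors by which phagocytes take up particles, and were chosen as candidate routes for the uptake of vesicles: Siglec1, Mertk, Axl, Timd4, Cd36, Msr1, Marco, Mrc1, Cd163 and Cd68. They are 10 of the 32285 genes counted in draining lymph node cells of 4 single-cell libraries. All animals were wildtype C57BL/6 mice. The EV group of 2 libraries received a total of 100 µg of extracellular vesicles (EVs) from induced pluripotent stem cells (iPSCs) under the skin, and the Control group of 2 libraries did not. The design text places the harvest at 5 days and the methods name PBS for the Control animals, whereas the sample labels record 24 h for all libraries and no treatment for the Control libraries. Neither source used here gives the age or sex of the mice, or says whether a library pooled several animals, so p-values measure the spread between libraries, which are called biological replicates.

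Phagocytes recognise dying cells, lipoproteins and membrane vesicles partly through phosphatidylserine, a lipid that moves to the outer leaflet of dying cells and is exposed on many vesicles. Timd4 encodes TIM-4, which binds phosphatidylserine directly, whereas the receptor kinases encoded by Mertk and Axl bind it through bridging proteins such as Gas6. Siglec1 encodes CD169, a sialic acid receptor of the macrophages that line lymph node sinuses, and Marco, Msr1, Cd36 and Cd163 encode scavenger receptors for polyanionic ligands, lipids or haemoglobin complexes. Mrc1 encodes the mannose receptor CD206, and Cd68 encodes a glycoprotein found mainly in late endosomes and lysosomes.

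After quality control 32725 of 34323 barcodes remained, 7891 to 8529 per library, with a median of 5502 to 6639 unique molecular identifiers (UMIs, each a tag of 1 captured mRNA molecule) per cell. Macrophages were cells with at least 3 UMIs of C1qa, C1qb and C1qc together and no Cd3e UMI, and there were 39, 77, 84 and 61 of them in Control 1, Control 2, EV 1 and EV 2. Values below follow this order of libraries. Dendritic cells (at least 1 Fscn1 UMI, no Cd3e) numbered 72, 123, 94 and 87. B cells (Cd79a without Cd3e) numbered 14686 and T cells (Cd3e without Cd79a) 14180. Macrophages led with Lyz2, Apoe, Ccl8, Aif1 and Cd209b beside the genes of their gate, and 7 to 9 of 12 macrophage markers had a UMI in at least 10% of them. The dendritic cell gate led with Adam23, Ccl5 and Apol7c, of which Adam23 and Apol7c are markers of migratory dendritic cells. Any pair of libraries shared 12 to 26 cell barcodes. The B cell share of all cells was 37.0% and 31.7% in Control and 59.6% and 50.4% in EV, without overlap (difference of means 20.6 points, exact two-sided permutation p = 0.33, the smallest that 2 against 2 libraries allow). The macrophage share, 0.479%, 0.976%, 1.03% and 0.715%, overlapped between groups.

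Macrophages were shallow and not free of B cell transcripts. Their median of 1067 to 1404.5 UMIs was 0.171 to 0.212 times that of their library. All 8 B cell markers were detected in each library, and their sum was 2573 and 2566 counts per 1000000 (CPM) in Control macrophages against 5056 and 5176 in EV macrophages. Cells of the macrophage gate that also held a Cd79a UMI carried 19.0%, 29.2%, 47.4% and 45.3% of the gate's UMIs. The sum of 12 macrophage markers was 40183, 29017, 21596 and 16342 CPM. A CPM of a receptor in this gate therefore had a different denominator in the 2 groups. The part of these cells in the differences below was not tested, and values without them stand beside the result that rests on them.

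Marco and Timd4 had the largest shares of their UMIs in macrophages, which made up under 1.1% of the cells of each library. Over the 4 libraries macrophages held 53.0% of the 726 Marco UMIs and 46.8% of the 759 Timd4 UMIs. Of 38 Mertk UMIs 42.1% lay in macrophages. Axl (348 UMIs) lay in T cells with 43.1%, in macrophages with 22.1% and in other cells with a Lyz2 UMI with 20.4%. Most Mrc1, Msr1 and Siglec1 UMIs outside macrophages lay in those other Lyz2 cells, which held 62.4% of 250, 59.3% of 312 and 45.6% of 57. Cd68 (1149 UMIs) was spread over other Lyz2 cells (29.8%), plasmacytoid dendritic cells (19.2%), macrophages (15.4%) and B cells (14.6%). B cells held 85.5% of 854 Cd36 UMIs, and 62.9% of only 70 Cd163 UMIs lay in T cells. For these shares each cell was counted in 1 class only, with macrophages and dendritic cells set before B and T cells. Such shares also follow the number of cells in a class. By CPM, Cd36 was higher in other Lyz2 cells (29.8, 33.9, 9.45 and 15.8, on 42 UMIs) than in B cells (10.9, 13.1, 7.09 and 7.38). Over the 4 libraries Cd163 was at 4.49 CPM in macrophages, on 3 UMIs, and at 0.384 CPM in T cells.

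**Figure D1:**
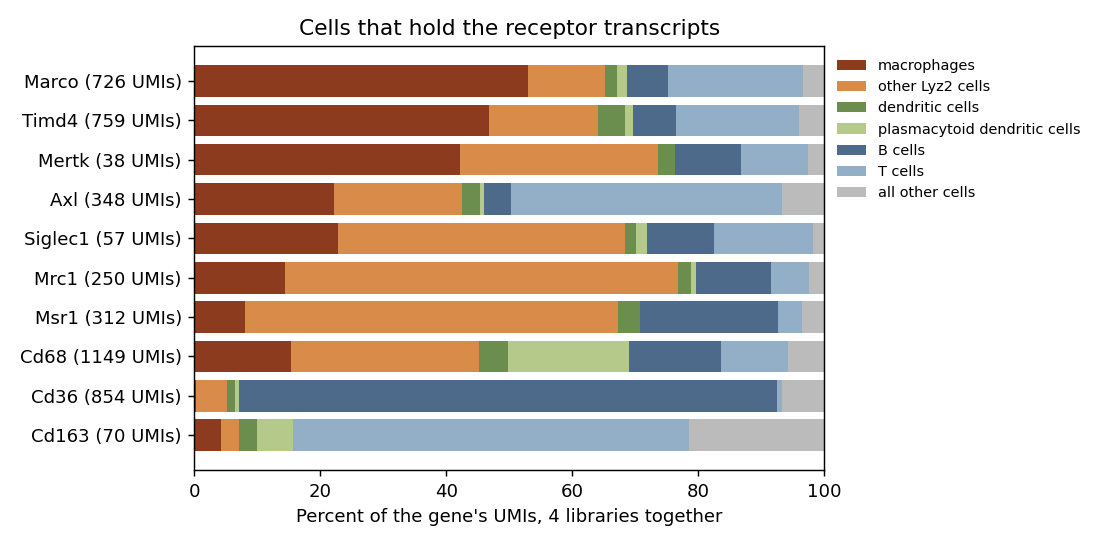
Each bar divides all UMIs of 1 receptor gene, summed over the 4 libraries (total in brackets), among exclusive classes of cells, in percent. The largest share of Marco and Timd4 lies in macrophages, Mrc1 and Msr1 in other Lyz2 cells, and Cd36 in B cells.

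The receptors that follow are placed on the mouse genome build GRCm38 by the GENCODE M21 annotation, and every member is protein-coding. Marco lies at chr1:120474538-120505024 on the minus strand, Timd4 at chr11:46810800-46844332 on the plus strand and Axl at chr7:25757273-25788705 on the minus strand. Cd68 lies at chr11:69664213-69666153 (minus), Cd36 at chr5:17781690-17888801 (minus), Mrc1 at chr2:14229392-14332057 (plus) and Msr1 at chr8:39581685-39642673 (minus). Mertk at chr2:128698956-128802894 (plus), Siglec1 at chr2:131069220-131086765 (minus) and Cd163 at chr6:124304656-124330527 (plus) complete the set. Only Mertk (Gm23172 and, on the other strand, Gm14011) and Mrc1 (Mir511) overlapped another annotated gene. The RefSeq table on GRCm38.p6 held start sites for 8 of the 10 genes. The 250 bases before the start of Marco (chr1:120505025-120505274, minus strand), Timd4 (chr11:46810549-46810798, plus strand) and Axl (chr7:25788734-25788983, minus strand), the 3 receptors with the largest fitted differences in macrophages, are shown 5′ to 3′ along the gene. Capitals mark matches, on either strand, to GAGGAA (the core read by PU.1 and other ETS factors), TGCTGA (part of the site of MAF factors) or AGGTCA (part of the site of nuclear receptors such as the liver X receptors).
Marco: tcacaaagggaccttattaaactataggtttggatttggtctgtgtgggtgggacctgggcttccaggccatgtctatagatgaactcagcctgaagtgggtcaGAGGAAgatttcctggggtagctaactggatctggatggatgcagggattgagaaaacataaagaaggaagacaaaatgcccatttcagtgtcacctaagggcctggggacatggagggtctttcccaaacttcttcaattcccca
Timd4: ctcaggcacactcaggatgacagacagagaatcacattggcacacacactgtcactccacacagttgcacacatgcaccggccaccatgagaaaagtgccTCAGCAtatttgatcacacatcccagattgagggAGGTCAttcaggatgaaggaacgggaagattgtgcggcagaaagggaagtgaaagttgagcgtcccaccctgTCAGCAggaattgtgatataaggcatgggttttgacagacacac
Axl: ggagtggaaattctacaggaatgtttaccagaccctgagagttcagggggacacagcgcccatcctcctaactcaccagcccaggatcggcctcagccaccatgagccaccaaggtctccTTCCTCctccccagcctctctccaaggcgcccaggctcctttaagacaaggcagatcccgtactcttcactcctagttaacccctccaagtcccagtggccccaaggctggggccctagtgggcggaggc
Marco held GAGGAA 146 bases before its start. Axl held its reverse complement from 130 bases before the start. Timd4 held TGCTGA on the reverse strand from 150 and from 44 bases before the start, and AGGTCA from 116 bases before it. GAGGAA was present in 23.3%, TGCTGA in 16.1% and AGGTCA in 14% of the 32851 windows of the same length. These matches are letters in a window, not measured binding.

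The first comparison asked whether macrophages of EV-treated mice differed from those of Control mice in receptor transcripts. Of the 10 receptors, Axl, Timd4, Marco, Mrc1 and Cd68 passed the filter on low counts, and none of the 5 passed the test (edgeR quasi-likelihood, Benjamini-Hochberg over 3313 genes, adjusted p under 0.05). None of the 3313 genes did, which is 0% of those tested, with 227 at an unadjusted p under 0.05 and 0 called by DESeq2 (69 unadjusted). Marco did not overlap with EV higher and Axl did not overlap with EV lower, where 36.9% of all genes tested did not overlap, 19.1% with EV higher and 17.7% with EV lower. The median log2 change was -0.26 over the 5 receptors tested and -0.01 over all genes tested.

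Marco, the collagen-like scavenger receptor of sinus macrophages, had 34, 51, 184 and 116 UMIs in macrophages, or 568, 283, 764 and 622 CPM. The EV libraries were the higher ones, although Control 1 came close to EV 2. The group means were 425 ± 202 and 693 ± 100 CPM (SD, n = 2), and edgeR gave a log2 change of 0.69 (SE 0.37, adjusted p = 0.74). A Marco UMI was found in 33.3%, 24.7%, 42.9% and 37.7% of macrophages, and in 20.5%, 15.6%, 27.4% and 24.6% after every cell was thinned to 500 UMIs. Marco passed the test in thinned cells (log2 1.23, edgeR adjusted p = 0.028). That setting also called genes other than the receptors, as counted in the closing section. Without Control 1 the log2 change of Marco was 1.21, and without Control 2 it was 0.21.

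Timd4 had the most UMIs of the receptors in Control macrophages, in 3′ counts that do not scale with gene length, and its CPM overlapped between groups. It had 57, 84, 130 and 84 UMIs, or 952, 466, 540 and 451 CPM, and Control 1 stood above the others. The log2 change was -0.55 (SE 0.37, edgeR adjusted p = 0.86). A Timd4 UMI was found in 46.2%, 42.9%, 52.4% and 49.2% of macrophages, a share higher in both EV libraries (exact permutation p = 0.33), and after thinning in 38.5%, 27.3%, 28.6% and 34.4%, which overlapped. Without Control 2 the log2 change of Timd4 was -1.01, and without Control 1 it was 0.00.

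Most macrophages with a Marco UMI also held a Timd4 UMI. A Marco UMI was present in 11 of 18 cells with Timd4 and 2 of 21 without it in Control 1, and in 15 of 33 and 4 of 44 in Control 2. In EV 1 the counts were 29 of 44 and 7 of 40, and in EV 2 18 of 30 and 5 of 31. Depth was not matched between these cells.

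Both genes were counted in the same cells, so the ratio of their UMIs does not have the gate's total in its denominator. Macrophages held 0.597 and 0.607 Marco UMIs per Timd4 UMI in Control and 1.42 and 1.38 in EV. The exact 95% intervals for counting error were 0.378 to 0.928 and 0.420 to 0.870 in Control. In EV they were 1.125 to 1.79 and 1.03 to 1.85, and they did not overlap between groups. They take UMIs as independent, whereas each macrophage with Marco held 2.62, 2.68, 5.11 and 5.04 Marco UMIs on average. The intervals are therefore too narrow, and their separation is not a test of the groups. The exact permutation p was 0.33, the smallest possible. Without the macrophage holding most Marco UMIs in each library the ratios were 0.520, 0.512, 1.33 and 1.21, and without cells holding a Cd79a UMI 0.604, 0.583, 1.15 and 1.44. Over all cells of each library the ratios were 0.717, 0.576, 1.28 and 1.15. The ratio was chosen after both genes' values were seen.

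**Figure D2:**
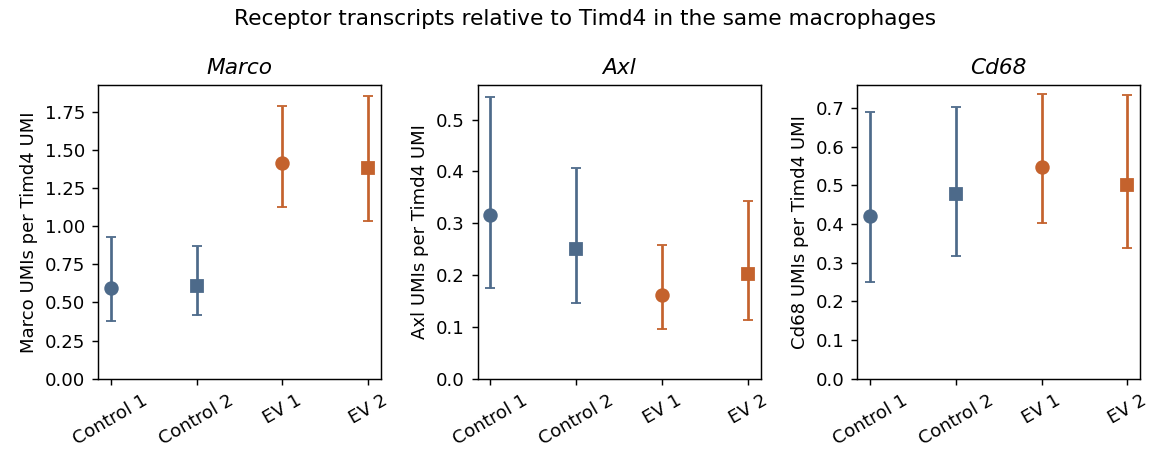
UMIs of Marco, Axl and Cd68 per Timd4 UMI in the macrophages of each library (points). Bars are exact 95% intervals for counting error that take UMIs as independent. Marco lies near 0.6 in both Control libraries and near 1.4 in both EV libraries. The Axl points are lower and the Cd68 points higher in both EV libraries, with intervals that overlap between groups.

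Axl, the receptor kinase that reads phosphatidylserine through Gas6, had nearly the same number of UMIs in each library, 18, 21, 21 and 17, spread over 39 to 84 cells. Its CPM of 301, 116, 87.2 and 91.2 was higher in both Control than in both EV libraries, with Control 1 far above the other 3. The log2 change was -1.13 (SE 0.49, unadjusted p = 0.044, edgeR adjusted p = 0.70). Without Control 2 the log2 change of Axl was -1.82, and without Control 1 it was -0.47. Per Timd4 UMI, Axl gave 0.316 and 0.25 in Control and 0.162 and 0.202 in EV, with overlapping intervals. These ratios were lower in both EV libraries (exact permutation p = 0.33, as for Marco). After thinning, 12.8%, 7.79%, 9.52% and 9.84% of macrophages held an Axl UMI, and the groups overlapped.

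Cd68 had 24, 40, 71 and 42 UMIs, or 401, 222, 295 and 225 CPM, and Control 1 was again the highest. Per Timd4 UMI, Cd68 gave 0.421 and 0.476 in Control and 0.546 and 0.5 in EV (exact permutation p = 0.33), with overlapping intervals. Its log2 change of -0.26 (SE 0.39, edgeR adjusted p = 0.98) had the opposite sign, 0.07, when cells in more than 1 gate were left out. Mrc1 had 4, 7, 16 and 9 UMIs, 66.8, 38.8, 66.4 and 48.3 CPM, with overlapping groups and a log2 change of 0.20 (SE 0.62, edgeR adjusted p = 0.99).

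The other 5 receptors were too sparse in macrophages to be tested. Msr1, the class A scavenger receptor, had 1, 3, 17 and 4 UMIs, in 1, 2, 8 and 3 cells, and a single cell held 9 of the 17 in EV 1. Mertk had 2, 3, 4 and 7 UMIs and Siglec1 2, 4, 4 and 3. The CD169 transcript was thus seen in 2.56%, 5.19%, 4.76% and 4.92% of macrophages, against 0.03% to 0.10% of B cells. Cd36 had 0, 1, 1 and 0 UMIs and Cd163 0, 2, 1 and 0. A count of 0 among the 39 macrophages of Control 1 allows 3 UMIs, or 50.1 CPM, and in EV 2 it allows 16.1 CPM. The counts of 0 in these libraries therefore do not show that Cd36 or Cd163 was absent. No receptor of the 10 was detected in 30.8%, 27.3%, 17.9% and 21.3% of macrophages, and 5 or more were detected in 4.92% to 7.69%.

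**Figure D3:**
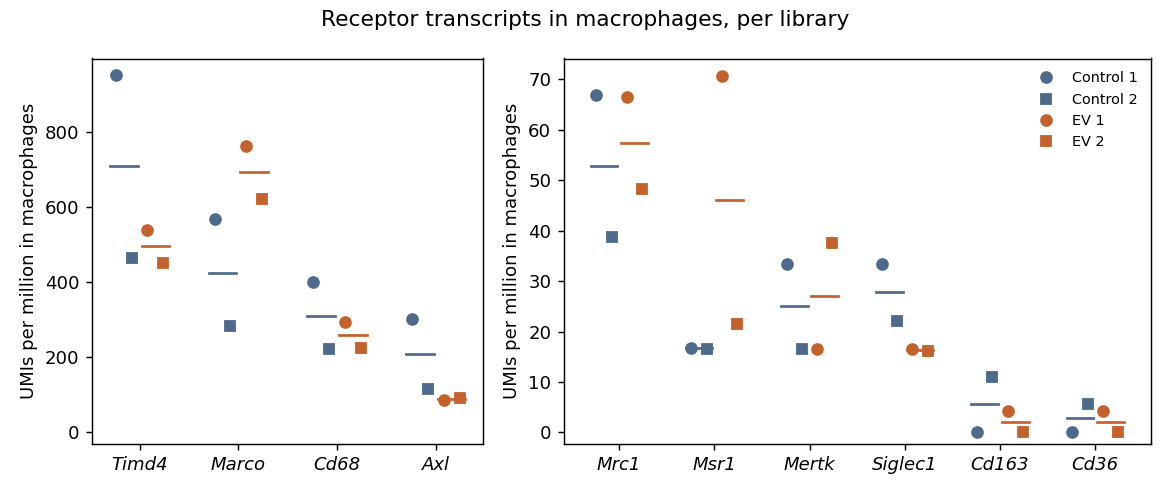
CPM in the macrophages in each library (points, circles for replicate 1 and squares for replicate 2) and the mean of each group (lines), for the 10 receptors on 2 linear scales. Marco is higher and Axl lower in both EV libraries than in both Control libraries, and the receptors on the right rest on 17 UMIs or fewer per library.

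Other genes of uptake were described by 7 lists, and none of the 34 listed genes tested in macrophages passed the test. Among scavenger receptors, Cd5l, a secreted scavenger protein of tissue macrophages, had 0 and 1 UMIs in Control and 44 and 22 in EV (edgeR adjusted p = 0.25). Its 2 groups lay far apart, but the fitted change rests on the near absence of counts in Control and gives no fold. Cxcl16 and Scarb2, the other scavenger receptors tested, had log2 changes of -0.12 and -0.96. Among C-type lectins, which bind carbohydrates, Clec4n had 9, 21, 125 and 45 UMIs and a log2 change of 1.49 (SE 0.46, edgeR adjusted p = 0.61). Cd209d had 30, 39, 17 and 38 UMIs and a lower level in both EV libraries (log2 -1.41, edgeR adjusted p = 0.70), and Cd209b, a lectin of marginal zone and medullary macrophages, had 81, 121, 235 and 190 UMIs with overlapping groups (log2 -0.07).

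The Fc and complement receptor list held Fcgr2b, the inhibitory IgG receptor, with 1, 3, 33 and 11 UMIs, while Fcer1g and Fcgr3 had log2 changes of 0.03 and -0.03. B cells also express Fcgr2b, at 79.8 to 97.0 CPM. Of the lipid handling genes, Apoe, the apolipoprotein that carries lipid out of macrophages, was lower in both EV libraries, with 1017, 2189, 1682 and 939 UMIs and 20550, 14620, 8048 and 5621 CPM (TMM-scaled). Its log2 change was -1.36 (SE 0.24, edgeR adjusted p = 0.25), whereas Nr1h3, the liver X receptor alpha that responds to sterols, was at 0.21 and the sterol exporter Abcg1 at -0.41. For engulfment and lysosome genes 16 of 18 were tested, with a median log2 change of -0.36, and the cathepsins Ctsb, Ctss and Ctsd were at -0.43, -0.33 and -0.58. The opsonin C3 was at -0.36 and the phosphatidylserine-binding receptor Cd300a at 0.87. Cells with a Cd79a UMI carried 19.0% and 29.2% of the gate's UMIs in Control and 47.4% and 45.3% in EV. Their part in these changes was not tested.

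In dendritic cells, where 0.148% of 7421 genes passed the test (0.0674% higher and 0.0809% lower in EV), the receptors were rare. Timd4 and Cd68 alone passed the filter. Timd4 had 5, 20, 25 and 6 UMIs (log2 0.20, SE 0.58, edgeR adjusted p = 0.98) and Cd68 8, 24, 17 and 20 (log2 0.05, SE 0.44, edgeR adjusted p = 0.99), and both overlapped between groups, where 36.6% of all genes did not (18.0% with EV higher, 18.6% with EV lower). The 8 receptors left out had 0 to 10 UMIs in any library. Marco in dendritic cells was at 4.78 to 14.9 CPM against 283 to 764 in macrophages. The 2 gates share cells. Over the 4 libraries 14 of the 24 Marco UMIs and 33 of the 56 Timd4 UMIs in dendritic cells lay outside the macrophage gate. No gene of the 7 lists passed the test here either. In the test of the difference between the EV effect in macrophages and in dendritic cells (edgeR, library as a block), 6 receptors could be tested. Marco differed by 1.33 on the log2 scale (SE 0.93), Axl by -1.59 (SE 1.17) and Timd4 by 0.64 (SE 0.75), all with an edgeR adjusted p of 1, while 0.157% of 6378 genes passed.

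A class added after seeing the data held the other cells with a Lyz2 UMI, outside the 4 gates and the plasmacytoid dendritic cell, neutrophil and NK cell classes. Cells with Flt3, or with both Cd3e and Cd79a, could enter this class. It comprised 61, 111, 130 and 103 cells and led with Lyz2, Ifitm3, Fcer1g, Tyrobp and Pid1. In these cells Mrc1, Msr1, Cd68 and Axl were each higher in both EV than in both Control libraries, and Timd4 and Cd36 lower. No receptor passed the test, in which 4 of 7031 genes (0.0569%) did, and 47.6% of all genes did not overlap (23.4% with EV higher, 24.2% with EV lower). Without the filter on low counts Mrc1, Msr1, Cd68 and Timd4 passed, as given in the closing section.

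Mrc1 had 1, 0, 116 and 39 UMIs in other Lyz2 cells. A single cell of EV 1 carried 64 of them and a single cell of EV 2 carried 20, and only 4 and 5 EV cells held any. The fitted log2 change of 5.93 (SE 0.91, edgeR adjusted p = 0.0597) rests on 1 UMI in Control and is no estimate of a fold. Without the cell with most Mrc1 UMIs in each library it was 4.85 (edgeR adjusted p = 0.13). With 1 library left out the log2 change of Mrc1 ranged from 4.58 to 9.03. Msr1 had 1, 21, 120 and 43 UMIs, or 3.73, 44.5, 142 and 67.8 CPM, and was found in 1.64%, 5.41%, 23.9% and 12.6% of the cells. Its log2 change was 1.83 (SE 0.61, edgeR adjusted p = 0.19), and 4.66 without Control 2.

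Cd68 was at 63.4, 99.6, 165 and 217 CPM, higher in both EV libraries without passing the test (log2 1.10, SE 0.28, edgeR adjusted p = 0.12). Axl had 14.9, 21.2, 36.6 and 41.0 CPM (log2 0.96, edgeR adjusted p = 0.30). Timd4 had 78.3, 104, 41.3 and 41.0 CPM (log2 -1.24, SE 0.29, edgeR adjusted p = 0.11), the reverse order. Marco, at 22.4, 42.4, 53.1 and 26.8 CPM, overlapped.

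The makeup of these cells differed between libraries. Monocyte markers summed to 634, 1757, 5386 and 3875 CPM, and macrophage markers to 4222, 8620, 11591 and 10625 CPM. All 8 T cell markers were detected in each library and summed to 2070, 2349, 1433 and 1331 CPM, lower in both EV libraries. Their part in the differences was not tested. Cells with a UMI of Ccr2, a chemokine receptor of monocytes, numbered 7, 17, 34 and 25, and their median depth was 5106, 8231, 13022.5 and 14385 UMIs. Of the Msr1 UMIs in other Lyz2 cells 1, 20, 113 and 42 lay in cells with Ccr2, and of the Mrc1 UMIs 0, 0, 115 and 38. Within the cells with Ccr2, Msr1 was at 19.2, 139, 280 and 125 CPM, with overlapping groups, and Cd68 at 173, 174, 257 and 330 CPM, without overlap. The Cd68 values rest on 9, 25, 104 and 111 UMIs, and a single cell held 5 of the 9 in Control 1. The share of all genes without overlap was not computed for the cells with Ccr2, so this separation has no background beside it. Timd4 UMIs lay instead in cells without Ccr2, 20, 47, 32 and 26 of them. How far the larger number and greater depth of cells with Ccr2 account for the differences in the class was not tested.

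**Figure D4:**
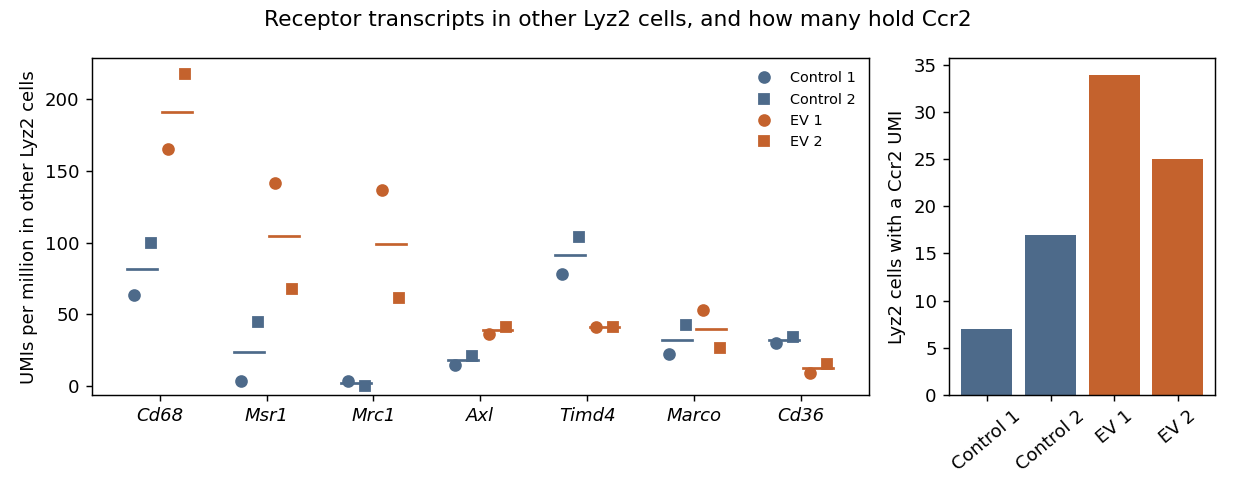
Left, CPM in other Lyz2 cells in each library (points) and group means (lines) for the 7 receptors tested, on a linear scale. Right, the number of these cells that held a Ccr2 UMI. Cd68, Msr1, Mrc1 and Axl are higher in both EV libraries, where more of the cells hold Ccr2.

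Over all cells of a library, added after seeing the data, Marco alone of 9 receptors tested passed the test, where 8.2% of 16106 genes passed (5.21% higher and 2.99% lower in EV). It had 91, 121, 281 and 233 UMIs, or 1.85, 2.18, 4.61 and 3.70 CPM, a log2 change of 1.07 (SE 0.20, edgeR adjusted p = 0.0258). The groups did not overlap. It no longer passed without Control 1 (0.95, edgeR adjusted p = 0.078) or in thinned cells (0.82, edgeR adjusted p = 0.090). Msr1 (10, 33, 189 and 80 UMIs, log2 2.45, edgeR adjusted p = 0.054), Mrc1 (22, 24, 146 and 58 UMIs, 1.94, edgeR adjusted p = 0.060) and Cd68 (136, 258, 390 and 365 UMIs, 0.74, edgeR adjusted p = 0.11) were higher in both EV libraries without passing, and 60.2% of all genes did not overlap (29.6% with EV higher, 30.5% with EV lower). With 1 library left out, the log2 changes ranged from 1.66 to 3.45 for Msr1, 1.09 to 2.48 for Mrc1 and 0.41 to 1.18 for Cd68. DESeq2 called these 3 (adjusted p = 0.00033, 0.0059 and 0.047), among 1716 genes that it called of the 16106. Shares of B and T cells differ between these libraries, so levels over all cells combine composition and expression.

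B cells held most UMIs of Cd36, the receptor for long-chain fatty acids, oxidised lipoproteins and thrombospondin. It had 149, 175, 221 and 196 UMIs in 3016, 2503, 4866 and 4301 B cells, or 10.9, 13.1, 7.09 and 7.38 CPM. The EV libraries lay close together, below both Control libraries. The log2 change was -0.68 (SE 0.15), just short of the threshold (edgeR adjusted p = 0.0557, where 2.55% of 13270 genes passed, 1.57% higher and 0.980% lower in EV), and -0.68 with DESeq2 (adjusted p = 0.093). Without the filter on low counts (0.0023) or without cells in more than 1 gate (0.043), the edgeR adjusted p passed the threshold. The setting without the filter also called more genes in B cells, as counted in the closing section. With 1 library left out the log2 change of Cd36 ranged from -0.81 to -0.53. Cd36 was found in 3.85%, 4.71%, 3.29% and 3.30% of B cells, and after thinning in 0.464%, 0.719%, 0.226% and 0.488%, which overlapped. In T cells, which serve as background, 0% to 0.09% held a Cd36 UMI, at median depths of 6546 to 8804 UMIs against 4141.5 to 5811 in B cells.

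Few B cells with Cd36 carried a macrophage transcript. C1qb was found in 1, 1, 3 and 0 of 116, 118, 160 and 142 B cells with Cd36. These are 0.862%, 0.847%, 1.88% and 0%, against 0.172%, 0.629%, 0.680% and 0.649% of those without. Lyz2 was found in 4.31%, 5.08%, 6.88% and 2.11% against 1.72%, 3.56%, 4.10% and 3.29%. Both were more frequent in the cells with Cd36 in every library except EV 2. Cr2, the complement receptor 2 that is highest on marginal zone and follicular B cells, was found in 81.0%, 81.4%, 73.8% and 84.5% of B cells with Cd36 and 59.4%, 66.3%, 55.7% and 67.4% of those without. Dtx1, a gene of the Notch pathway used by marginal zone B cells, was found in 22.4%, 29.7%, 31.2% and 28.2% against 10.1%, 12.7%, 17.8% and 18.0%. Cd1d1, which is also high on marginal zone B cells, was found in 7.76%, 12.7%, 7.5% and 4.23% against 5.00%, 5.70%, 7.14% and 5.84%, lower in the cells with Cd36 of EV 2. Fcer2a, the CD23 of follicular B cells, was found in 83.6%, 84.7%, 85.6% and 83.8% against 82.4%, 82.6%, 76.1% and 81.8%. Cells with Cd36 were also deeper, at medians of 5193 to 7355.5 UMIs against 4115 to 5775.5.

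The other receptors were rare in B cells. Marco (8, 28, 81 and 37 UMIs) and Timd4 (10, 40, 42 and 42) were seen in under 1% of B cells. Over the 4 libraries the B cell gate held 154 Marco and 134 Timd4 UMIs. Only 47 and 52 of them lay in cells outside the macrophage, dendritic cell, plasmacytoid dendritic cell, neutrophil and NK cell classes. Of the B cells with Marco 60%, 66.7%, 60% and 64.3% also held Cd209b, a gene found in 0.03% to 0.44% of the other B cells. Msr1 (8, 3, 30 and 29 UMIs, log2 1.37, SE 0.50, edgeR adjusted p = 0.19) did not overlap, with EV higher. A single B cell held 6 of the 8 Msr1 UMIs in Control 1, 12 of the 30 in EV 1 and 8 of the 29 in EV 2. B cells with Msr1 numbered 3, 3, 12 and 9, and 1, 0, 5 and 4 of them held Ccr2 and 1, 1, 5 and 4 held Lyz2, against 0.0664% to 0.400% and 1.79% to 4.10% of the others. Cd68 (23, 32, 72 and 86 UMIs, log2 0.49, SE 0.31, edgeR adjusted p = 0.42) overlapped at 1.68, 2.39, 2.31 and 3.24 CPM, and was higher in both EV libraries after TMM scaling only, where Control 2 and EV 1 were nearly equal. Of the B cells with Cd68 27.8%, 37.0%, 37.3% and 36.4% held Lyz2. What part these cells had in the levels was not tested. With EV higher after TMM scaling were 25.6% of all genes tested, of 51.8% that did not overlap in either direction, and with EV lower, as for Cd36, 26.2%. Among the listed genes 2 passed the test in B cells, where 2.55% of all genes tested passed. They were 1 of 17 tested engulfment and lysosome genes and 1 of 8 tested Fc and complement receptors, and the other lists gave none. Both were named after their values were seen. The 2 genes were Lgmn, a lysosomal protease (log2 0.42, SE 0.085, edgeR adjusted p = 0.045), and Fcgr1, the high-affinity IgG receptor and a macrophage marker, at 0.00, 0.07, 0.79 and 0.80 CPM (edgeR adjusted p = 0.043). Fcgr1 was nearly absent in Control, so it passed the filter through the EV libraries and its fitted change gives no fold. Whether the B cells with Fcgr1 held other macrophage transcripts was not tested.

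In T cells, where 0.536% of 13987 genes passed the test (0.479% higher and 0.0572% lower in EV), none of the 5 receptors tested passed. Axl had 36, 62, 22 and 32 UMIs, 1.25, 1.77, 0.98 and 1.13 CPM, lower in both EV libraries (log2 -0.49, SE 0.32, edgeR adjusted p = 0.42), as were 27.2% of all genes tested, of 53.3% that did not overlap. An Axl UMI was found in 0.75%, 1.19%, 0.91% and 0.85% of T cells. These cells held Ctla4, an inhibitory receptor of activated and regulatory T cells, in 35.5%, 36.5%, 45.5% and 42.9%, against 13.2%, 14.9%, 16.8% and 14% of the others. Ikzf2, which encodes Helios, was found in 41.9%, 38.5%, 22.7% and 50% against 15.4%, 14.1%, 15.5% and 14.1%. Foxp3, the factor that defines regulatory T cells, was found in 2, 7, 1 and 6 of the 31, 52, 22 and 28 cells with Axl. These are 6.45%, 13.5%, 4.55% and 21.4%, against 4.47%, 3.56%, 3.76% and 3.37% of the others. Cd8b1, a chain of the CD8 coreceptor, was found in 19, 30, 9 and 10 cells with Axl. These are 61.3%, 57.7%, 40.9% and 35.7%, against 50.6%, 51.0%, 49.2% and 48.0% of the others. C1qb was found in 4, 5, 1 and 3 of the cells with Axl, against 0.22% to 0.698% of the others. Lyz2 was found in 16.1%, 19.2%, 4.55% and 17.9% of T cells with Axl, against 1.76% to 4.01% of the others, and cells with Axl were deeper, at medians of 8016 to 10079.5 UMIs against 6532 to 8801.

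**Figure D5:**
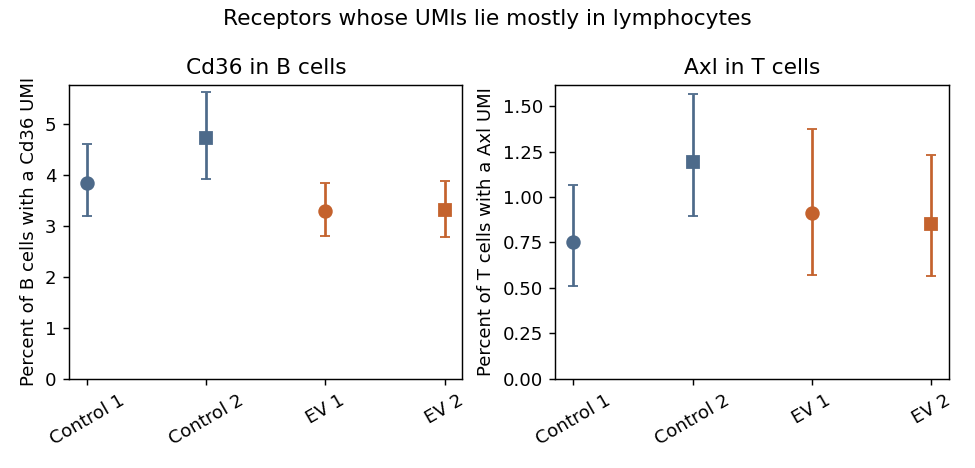
Percent of B cells with a Cd36 UMI and of T cells with an Axl UMI in each library, with exact 95% intervals for counting error. Cd36 is at 3.29% and 3.30% in the EV libraries and at 3.85% and 4.71% in the Control libraries. The Cd36 interval of Control 1 overlaps those of both EV libraries, whereas that of Control 2 lies above them. The Axl intervals overlap.

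Marco and Timd4 in T cells came with macrophage transcripts. Of the T cells with Marco 36.8%, 38.5%, 50% and 42.9% also held C1qb, against 0.15% to 0.69% of the others. Marco had 36, 25, 23 and 83 UMIs (log2 1.08, SE 0.49, edgeR adjusted p = 0.27) and Timd4 37, 34, 18 and 67 (log2 0.55, SE 0.47, edgeR adjusted p = 0.54), and EV 2 stood above the other libraries in both. A single T cell of EV 2 held 24 of its 83 Marco UMIs, and a single T cell held 14 of its 67 Timd4 UMIs. Marco was found in 0.461%, 0.299%, 0.414% and 0.426% of T cells, and Timd4 in 0.461%, 0.528%, 0.414% and 0.608%. Without EV 1 the log2 change was 1.62 for Marco and 1.10 for Timd4. With all 4 libraries and no filter on low counts, Marco passed the test (edgeR adjusted p = 0.015). Cd163, the haemoglobin-haptoglobin receptor usually taken as a macrophage gene, had 12, 17, 9 and 6 UMIs (log2 -0.57, SE 0.51, edgeR adjusted p = 0.57). C1qb was found in 0, 0, 0 and 1 of the 12, 15, 8 and 6 T cells with Cd163. Cd68 had 30, 45, 26 and 37 UMIs (log2 0.11, SE 0.31, edgeR adjusted p = 0.87).

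Cd68 was also high in plasmacytoid dendritic cells, defined by at least 2 Siglech UMIs outside the macrophage and dendritic cell gates and numbering 34, 39, 28 and 17. This class was set before the B and T cell classes, so cells of those 2 gates could enter it. Cd68 was at 123, 174, 172 and 184 CPM in these plasmacytoid dendritic cells. It was found in 55.9%, 66.7%, 71.4% and 88.2% of them, overlapping in CPM between groups.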

How the data were processed

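Draining lymph node cells of 2 Control and 2 EV libraries were measured by droplet 3′ single-cell RNA sequencing. The authors aligned reads to mm10 with Cell Ranger 7.1.0 and deposited whole-number UMI counts per gene and barcode, without normalization; the annotation release is not given in the sources used here. The libraries held 50749656, 58100433, 68116085 and 70418672 UMIs. Cells with 200 to 5000 genes, at most 20000 UMIs and under 10% mitochondrial UMIs were kept. No doublets were removed and gates could overlap, so leaving out cells in more than 1 gate was an alternative. UMIs of each class were added up within a library and tested with edgeR 4.0.16 (quasi-likelihood, two-sided, TMM, filterByExpr, Benjamini-Hochberg) in R 4.3.3. Shares and ratios were compared with exact permutation tests (scipy 1.17.1). CPM is counts per 1000000 of the class total, and 3′ counts were not scaled by gene length. Intervals are exact (Clopper-Pearson, 95%) and cover counting error only, and a count of 0 allows 3 counts. Scripts were tested on simulated data. The receptors, lists, gates and tests were chosen with earlier results of these data known. The text names all members and, of 7 lists of other uptake genes, those called in macrophages or dendritic cells and the 3 with the highest mean CPM in macrophages. Alternatives were DESeq2 1.42.0, no filter, a replicate block, thinning to 500 UMIs, library sizes without ribosomal, mitochondrial and other abundant genes, other cell filters, stricter or exclusive gates and each library left out. With a library left out, the lone library of a group is assumed to vary like the others.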

Additional observations from a re-analysis of the deposited data

How the results depend on the processing

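Counts of 0 to 184 UMIs per receptor and library in macrophages, and 2 libraries a group, limit these results. With 1 library left out, counts of called genes ranged from 0 to 140 in macrophages, 13 to 167 in dendritic cells, 97 to 2584 in B cells, 6 to 3026 in T cells, 16 to 203 in other Lyz2 cells and 725 to 3802 over all cells. Without the filter on low counts the counts were 47, 95, 1392, 1239 and 545 in the first 5 of these classes. That setting also called Cd36 in B cells (edgeR adjusted p = 0.0023) and Marco in T cells (0.015). In other Lyz2 cells it called Mrc1 (8.0e-16), Msr1 (3.2e-05), Cd68 (0.0022) and Timd4 (0.029). Over all cells it called Msr1 (0.013) and Mrc1 (0.020) beside Marco. The Mrc1 UMIs of other Lyz2 cells lay almost only in EV, where single cells held 64 in EV 1 and 20 in EV 2. DESeq2 gave 4 in dendritic cells, 325 in T cells and 59 in other Lyz2 cells. Thinned cells gave 15, 1 and 141 in macrophages, dendritic cells and B cells, 8 in other Lyz2 cells and 628 over all cells. With no upper limits and a mitochondrial limit of 5% they were 4, 7 and 688 in macrophages, dendritic cells and B cells and 2 in other Lyz2 cells. Stricter gates gave 100 in macrophages, 0 in dendritic cells and 156 in T cells, and exclusive gates 0 in dendritic cells. Other Lyz2 cells gave 0 without the cell with most Mrc1 UMIs of each library and 0 with library sizes without abundant genes. The difference between macrophages and dendritic cells was called for 0 genes without a library block, against 10. The cause of these shifts was not tested.

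With the replicate block, the counts were 35, 1, 1182 and 550 in macrophages, dendritic cells, B cells and T cells, 260 in other Lyz2 cells and 2672 over all cells. Differences between replicates of the same number correlated at 0.125, -0.0158, 0.0306, 0.0857, -0.0599 and 0.215 across the genes of these classes, so the numbers are not taken as pairs. The block brought Cd36 in B cells (adjusted p = 0.0041), Timd4, Mrc1 and Cd68 in other Lyz2 cells and Msr1, Mrc1 and Cd68 over all cells past the threshold of edgeR's test, and changed the call of no other receptor.

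Directions that turned were of receptors that had not passed the test. Leaving out 1 library, the log2 changes ranged in macrophages from -1.01 to 0.0039 for Timd4, -0.69 to 0.15 for Cd68 and -0.27 to 0.49 for Mrc1. In dendritic cells they ranged from -1.29 to 1.11 for Timd4 and -0.28 to 0.66 for Cd68. In B cells they ranged from -0.0093 to 1.83 for Marco and -0.98 to 1.05 for Timd4, and in T cells from -0.038 to 0.28 for Cd68 and -0.45 to 1.10 for Timd4. In other Lyz2 cells Marco ranged from -0.45 to 0.76, and over all cells Timd4 from -0.13 to 0.44 and Axl from -0.28 to 0.14. Exclusive gates gave 0.073 for Cd68 in macrophages and -0.24 for Marco in B cells, and stricter gates 0.50 for Timd4 in B cells. Timd4 in dendritic cells was -0.15 with no upper limits and the mitochondrial limit of 5% together. Over all cells thinning gave 0.067 for Axl, -0.087 for Timd4 and -0.19 for Cd36. The difference between macrophages and dendritic cells was 0.011 for Cd68 without the filter. The macrophage share (0.145 points higher in EV) was -0.0058 after thinning and -0.104 to 0.393 with 1 library left out. The dendritic cell share (-0.136) was 0.0260 with stricter gates, 0.0718 with no upper limits and the mitochondrial limit of 5% together, and -0.473 to 0.201 with 1 library left out. Marco in macrophages was higher and Axl lower in EV under every alternative that gave a value. DESeq2 left 11 receptor values without an adjusted p.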
